A study of Mus musculus with 16 samples.

Results

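Cadherins and the genes of the epithelial and mesenchymal states were followed in chimeric mouse embryos made of *Stat3* null and wild-type (WT) cells. The set held 10 genes, *Cdh1*, *Cdh2*, *Cdh11*, *Epcam*, *Vim*, *Snai2*, *Zeb1*, *Zeb2*, *Krt8* and *Krt18*, chosen by name from the 29453 genes of the count matrix. All 10 were in the matrix. The donor embryonic stem cells carried a *Stat3* null allele in which internal coding exons were replaced by a Neo cassette, and they expressed tdTomato. They were injected into blastocysts of the outbred CD1 strain, and the paper states that the donor cells were CD1 as well. Chimeric embryos were taken on 3 days of gestation (E7.5, E8.5 and E9.5), dissociated and sorted into tdTomato-positive cells (null) and tdTomato-negative host cells (WT). Both fractions thus came from the same embryos, and the WT cells of every stage had developed beside null cells. Single-cell RNA was counted by unique molecular identifiers (UMIs) in 16 libraries, and each genotype had 2 libraries at both E7.5 and E8.5 and 4 at E9.5 (lettered A to D here). A library pooled about 10 embryos at E7.5 and about 4 at E8.5, and it held 1 embryo at E9.5 by its label. In the study's supplement the E7.5 embryos are classed as large or small and then pooled. Libraries A and B of E7.5 could not be tied to a size class here. Whether embryo size enters their spread was not tested. The study's methods count fewer E9.5 embryos than libraries per genotype, so some E9.5 libraries may share an embryo, and p-values measure the spread between libraries. The null cells came from injected stem cells and the WT cells from host blastocysts, so that origin and genotype cannot be told apart.

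Doublets and the tdTomato-containing cells of the WT sort were removed, which left 37841 of 41832 cells in 87 labelled cell types, with 20682659 to 138613245 UMIs per library. Of 47 defining markers checked in 15 labelled types, 42 were higher in their own type than in the other cells. The exceptions were *Foxa2* and *Shh* in the Pharyngeal endoderm and *Meox1*, *Tcf15* and *Tbx6* in the Anterior somitic tissues at E9.5, where *Tbx6* had no UMI. The labels come from expression, so this count describes them and does not test them. The markers include *Krt8* for Surface ectoderm, which is also among the 10 genes. *Stat3* reads lie downstream of the deleted exons and do not test the deletion, yet *Stat3* stood at 1.16 to 2.53 UMIs per 1000000 UMIs (CPM) in null and at 6.14 to 9.31 CPM in WT libraries. A tdTomato UMI was found in 72.3% of the null-sorted cells of library E8.5 null B, and in 89.8% to 98.3% in the other null libraries. Barcode sequences were shared by 978 cells of different libraries (488 sequences).

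In an epithelium, cells are joined by E-cadherin (*Cdh1*) and the adhesion molecule EpCAM (*Epcam*) and carry a keratin network of *Krt8* and *Krt18*, which pair to form the intermediate filaments of simple epithelia. Mesenchymal cells carry vimentin (*Vim*) filaments and other cadherins such as N-cadherin (*Cdh2*) and cadherin 11 (*Cdh11*). At gastrulation the epiblast, an epithelium with E-cadherin, gives rise to mesoderm through the primitive streak, and zinc finger repressors that bind E-boxes (*Snai2*, *Zeb1* and *Zeb2*) are known for acting against *Cdh1* in such transitions. Neural epithelium keeps its epithelial form with N-cadherin in place of E-cadherin, and neural crest leaves it as migrating cells.

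In the GENCODE annotation of GRCm38.p6 all 10 are protein-coding genes. *Cdh1* lies at chr8:106603351-106670246 and *Cdh11* on the same chromosome at 102632095-102785642. *Krt8* (chr15:101996698-102004482, minus strand) and *Krt18* (chr15:102028180-102032027, plus strand) are neighbours that point away from each other. *Epcam* lies at chr17:87635979-87651129 and *Snai2* at chr16:14705852-14709385. *Vim* (chr2:13573927-13582826) and *Zeb2* (chr2:44983632-45117395) share a chromosome.

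The promoters of 4 of the 10 genes (*Epcam*, *Krt18*, *Vim* and *Zeb2*) were taken from the RefSeq promoter windows of GRCm38.p6, each of 300 bases with 250 before the start. No window of the other 6 genes is reported here. The sequences of *Epcam* and *Krt18* are given because these windows hold the core E-box that *Snai2* and the Zeb proteins are known to bind, in the letters CACCTG or, on the other strand, CAGGTG. E-boxes are in capitals, and each line runs 5′ to 3′ on the gene's strand.
*Epcam*, chr17:87635729-87635978, plus strand: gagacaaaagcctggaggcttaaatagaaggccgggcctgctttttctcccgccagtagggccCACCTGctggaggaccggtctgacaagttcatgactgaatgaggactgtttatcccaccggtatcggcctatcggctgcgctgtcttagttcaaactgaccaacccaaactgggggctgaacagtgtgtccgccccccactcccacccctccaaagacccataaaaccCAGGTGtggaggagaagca
*Krt18*, chr15:102027966-102028179, plus strand: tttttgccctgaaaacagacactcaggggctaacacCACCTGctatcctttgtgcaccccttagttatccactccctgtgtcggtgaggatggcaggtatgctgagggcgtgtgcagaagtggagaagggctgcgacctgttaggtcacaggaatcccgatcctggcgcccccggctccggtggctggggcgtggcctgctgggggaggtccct
The *Epcam* window held an E-box in each orientation and the *Krt18* window held 1, in the form CACCTG. No match of these letters was found in the windows of *Vim* and *Zeb2*. The *Vim* window and some of the *Zeb2* windows began within an annotated exon of the gene, with 0 bases before it. Of all 32851 windows of this length, 20.2% held at least 1 of these words on either strand, so a match is a description of the sequence and was not tested as a binding site.

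At E7.5 *Cdh1* was high in epiblast, ectoderm and endoderm and *Cdh2* in mesoderm, and some types held both. *Cdh1*, the E-cadherin gene on chromosome 8, stood at 144 and 121 CPM in the Gut tube of WT libraries A and B, at 128 and 117 in the Visceral endoderm and at 109.5 and 99.0 in the Caudal epiblast. It was 2.52 and 1.27 CPM in the Mesenchyme of the same libraries. Only the 11 types with enough cells in both WT libraries were ranked. Other labels of E7.5, among them Epiblast and Nascent mesoderm, were not. Within the 11, every type of epiblast, ectoderm and endoderm stood above every mesodermal type in both libraries. The Blood progenitors (2.32 CPM) and the Lateral plate mesoderm (4.07 CPM) were near the Mesenchyme. *Cdh2*, the N-cadherin gene, was highest in the Intermediate mesoderm, with 125 and 154 CPM in WT A and B. The next types were Paraxial mesoderm (81.7 ± 26.7 CPM) and Lateral plate mesoderm (73.4 ± 12.5 CPM), and the lowest were Non-neural ectoderm (10.1), ExE ectoderm (3.42) and Blood progenitors (2.11). The Gut tube and the Caudal epiblast held *Cdh2* (45.9 and 37.1 CPM) beside much *Cdh1*, and the Mesenchyme had 46.4 CPM of *Cdh2*, near the Gut tube. Among the mesodermal types the Intermediate mesoderm had the most *Cdh1*, 20.9 and 16.8 CPM. In the order of the 11 types, the ranges of 4 of 10 neighbouring pairs overlapped for *Cdh1* and of 5 of 10 for *Cdh2*, and such neighbours do not differ beyond the spread of 2 libraries.

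Both cadherins were then counted in single cells. After each cell was thinned to 10000 UMIs, a depth that every cell analysed reached, a *Cdh1* UMI was found in 75.7% ± 5.10 (SD over WT libraries, n = 2) of Gut tube cells, in 65.7% ± 15.9 of Caudal epiblast cells and in 2.44% of Mesenchyme cells of both libraries. The unthinned shares were 95.3%, 89.5% and 6.71%. Blood progenitors, which should lack both cadherins, gave 1.49% for *Cdh1* and 4.74% for *Cdh2* after thinning, at median depths of 35601 to 43815.5 UMIs per cell against 26556.5 to 38089 in the Mesenchyme, so the Mesenchyme share of *Cdh1* cannot be told from that background. A UMI of both cadherins was found in 20.7% ± 8.82 of thinned Caudal epiblast cells, in 19.1% ± 2.61 of Gut tube cells and in 9.64% ± 2.76 of Intermediate mesoderm cells (57.4%, 52.0% and 33.5% unthinned). Erythroid cells of WT E8.5 and E9.5 libraries gave 0.952% and 0.708% for *Cdh1* and 3.23% and 5.99% for *Cdh2* (2.42%, 1.38%, 10.5% and 15.1% unthinned), and serve as the background of these later stages.

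**Figure D1:**
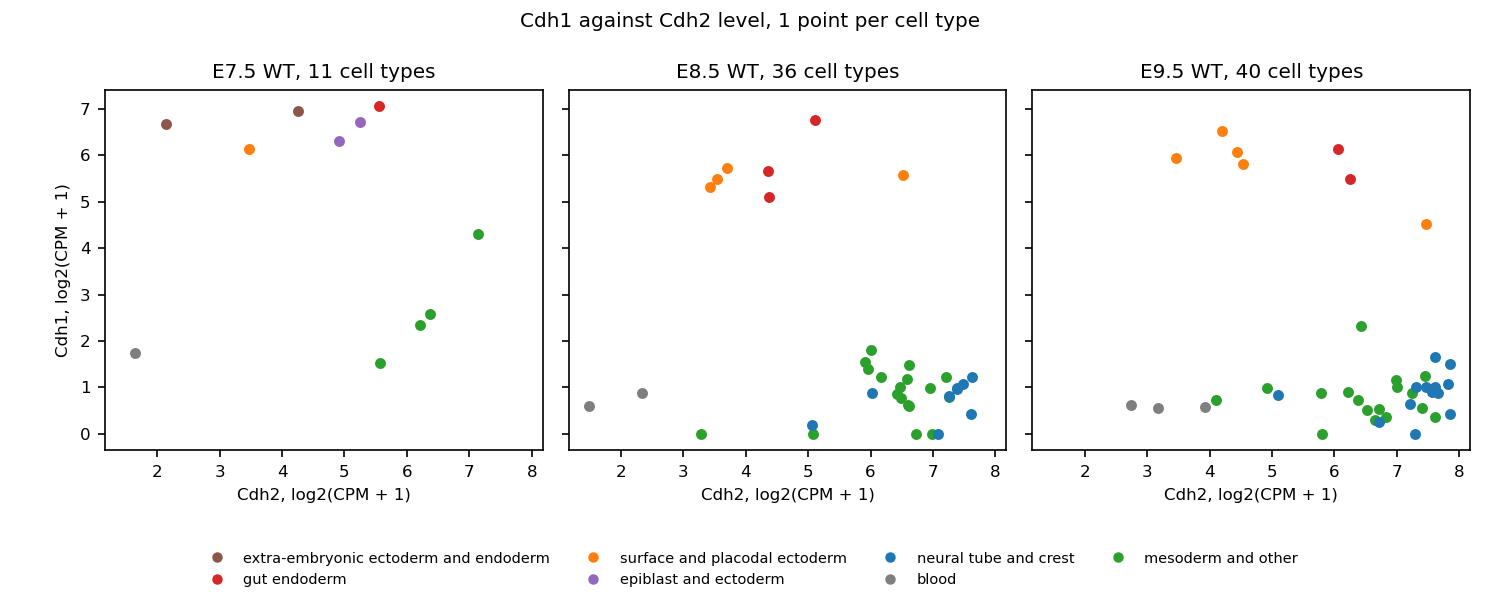
Mean level over WT libraries of *Cdh1* (vertical axis) against *Cdh2* (horizontal axis), both as log2(CPM + 1), with 1 point for each labelled cell type that had 2 or more WT libraries of more than 15 cells, in a panel per stage (11, 36 and 40 types); colours give tissue classes. Endoderm, epiblast and surface ectoderm lie at the top, most mesodermal and neural types lie at the bottom right, and the Intermediate mesoderm of E7.5 (18.9 CPM of *Cdh1*) and the Placodal ectoderm of E9.5 (21.9 CPM) lie between.

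At E8.5 and E9.5, *Cdh1* was held by endoderm and surface ectoderm. The types of gut endoderm had a median of 49.4 CPM at E8.5 and 57.0 CPM at E9.5, and those of surface and placodal ectoderm 45.3 and 60.5 CPM. In every other class with types at these stages the median was 2.20 CPM or less. The highest types at E8.5 were Thyroid primordium (107 ± 42.9), Amniotic ectoderm (52.1 ± 18.7) and Foregut (49.4 ± 8.13), and at E9.5 Epidermis (90.9 ± 10.5), Thyroid primordium (69.7 ± 3.18) and Limb ectoderm (66.4 ± 19.2) (mean CPM ± SD over WT libraries). *Cdh1* in the Epidermis of E9.5 was 85.5, 100.1, 99.3 and 78.7 CPM in WT A to D and 84.1, 74.1, 89.6 and 88.9 in null A to D, so that the genotypes overlapped. At E8.5 no *Cdh1* UMI was found in Cardiopharyngeal progenitors FHF, Dorsal hindbrain progenitors, Pharyngeal mesoderm, Venous endothelium and YS mesothelium. These types tied as the lowest of those with 2 WT libraries. Their limits are 1.23, 1.32, 3.92, 2.65 and 1.04 CPM in this order, by 3 UMIs over the WT libraries. At the lower end of E9.5 the Migratory neural crest had 0.185 CPM, and no *Cdh1* UMI was found in Hindbrain neural progenitors and Venous endothelium, which allows up to 0.362 and 1.07 CPM over their WT libraries (3 UMIs).

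*Cdh2* had its highest levels in the neural tube at both later stages, led by Hindbrain floor plate (195 ± 62.3), Ventral hindbrain progenitors (195 ± 11.4) and Spinal cord progenitors (177 ± 41.0) at E8.5 and Late dorsal forebrain progenitors (230.4 ± 42.9), Hindbrain floor plate (229.8 ± 24.2) and Ventral forebrain progenitors (226 ± 49.7) at E9.5. The neural tube and brain types had a median of 166 and 194 CPM, against 96.4 and 104 in lateral, limb and intermediate mesoderm and 2.91 and 8.03 in blood. The lowest types were YS mesothelium (8.73), Erythroid (4.03) and EMP (1.79) at E8.5 and Amniotic ectoderm (10.1), EMP (8.03) and Erythroid (5.70) at E9.5. Placodal ectoderm was the surface ectoderm type with much *Cdh2*, at 108 and 72.7 CPM in WT A and B at E8.5. After thinning, 13.3% ± 4.04 (n = 2) of its E8.5 cells and 12.9% ± 1.27 (n = 2) of its E9.5 cells had a UMI of both cadherins, 45.8% and 39.0% unthinned. Their median depths were 15700.5 to 31091 and 28806 to 37908 UMIs per cell, against 25352.5 to 42665 and 20780 to 31061 in Erythroid cells. In Erythroid cells 0.161% and 0.185% had both unthinned. Ranges of neighbouring types overlapped in 31 of 35 pairs of E8.5 types and in 37 of 39 of E9.5 types.

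*Cdh11*, a cadherin of loose mesenchyme that also lies on chromosome 8, was highest in mesenchyme and in somitic and cranial mesoderm. At E7.5 its level in the Mesenchyme was 122 ± 13.4 CPM, above the other types. Next came Lateral plate mesoderm (74.8) and Paraxial mesoderm (41.1), and the lowest were Visceral endoderm (1.29), Blood progenitors (0.748) and Gut tube (0.428). It was highest at E8.5 in Sclerotome (249 ± 23.5), Anterior somitic tissues (233 ± 70.1) and Cranial mesoderm (194 ± 16.9) and lowest in Surface ectoderm (2.17), Thyroid primordium (1.47) and EMP (1.04). In the Sclerotome, which forms the vertebrae, it was 265 and 232 CPM in WT A and B at E8.5 and 237, 249, 225 and 254 in WT A to D at E9.5, and the null libraries gave 259.9 and 313 CPM at E8.5 and 241, 283, 174 and 220.0 CPM at E9.5. WT and null ranges overlapped at E9.5. The 3 leading types of E9.5 were Cranial mesoderm (275 ± 34.1), Sclerotome (241 ± 13.1) and Cardiopharyngeal progenitors SHF (207 ± 21.9), and the lowest Epidermis (5.42), Erythroid (4.65) and EMP (2.88).

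*Epcam* was highest in types that held *Cdh1*. At E7.5 it was highest in Visceral endoderm (1155 ± 202), Gut tube (724 ± 114) and ExE ectoderm (583 ± 99.5) and lowest in Lateral plate mesoderm (42.6), Mesenchyme (23.9) and Blood progenitors (12.7). At E8.5 Thyroid primordium (834 ± 100.3), Foregut (683 ± 51.1) and Pharyngeal endoderm (675 ± 73.9) led, and at E9.5 Limb ectoderm (817 ± 147), Thyroid primordium (786 ± 48.9) and Pharyngeal endoderm (748 ± 60.6). The lowest were Embryo proper mesothelium (1.63), Anterior somitic tissues (1.35) and Posterior somitic tissues (0.699) at E8.5 and Hindbrain neural progenitors (1.90), YS mesothelium (1.56) and Erythroid (1.09) at E9.5. *Epcam* in Limb ectoderm was 921 and 714 CPM in the WT libraries with enough cells and 723 and 748 in null libraries, again overlapping. Outside gut endoderm and surface ectoderm no class median of E8.5 or E9.5 exceeded 15.5 CPM.

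*Krt8* and *Krt18* were also high in types with little *Cdh1*. At E7.5 *Krt18* was 2607 and 2224 CPM in the Visceral endoderm of WT A and B, and 1472 and 1308 CPM in the Mesenchyme, a type with little *Cdh1*. *Krt8* was 1828 and 1547 CPM in the Visceral endoderm and 1567 and 1237 CPM in the Mesenchyme. Both keratins were therefore high in a labelled mesenchyme that had 643 ± 60.9 (SD, n = 2) CPM of *Vim*, the highest of the E7.5 types. The Gut tube was the other leading type of E7.5, with a mean of 1318 CPM for *Krt8* and 1436 for *Krt18*, and the lowest types were Ectoderm (42.3), Caudal epiblast (41.9) and Blood progenitors (22.8) for *Krt8* and Caudal epiblast (51.2), Blood progenitors (42.6) and Intermediate mesoderm (32.0) for *Krt18*. At E8.5 the leading types for *Krt8* were Amniotic ectoderm (1986 ± 347), YS mesothelium (1375 ± 117) and Mesenchyme (1308 ± 16.2), and at E9.5 Amniotic ectoderm (1992 ± 61.8), YS mesothelium (911 ± 58.8) and Allantois (782 ± 122). For *Krt18* they were Amniotic ectoderm (1615 ± 119), YS mesothelium (1283 ± 84.0) and Foregut (1282 ± 622) at E8.5 and Amniotic ectoderm (1707 ± 93.1), YS mesothelium (687 ± 66.1) and Epidermis (662 ± 33.6) at E9.5. YS mesothelium, the lining of the yolk sac, had no UMI of *Cdh1* (which allows up to 1.04 CPM), 2.95 CPM of *Epcam* and 1047 CPM of *Vim* at E8.5. The lowest types at E8.5 were Midbrain/Hindbrain boundary (10.2), Erythroid (9.81) and EMP (7.18) for *Krt8* and Migratory neural crest (11.3), Erythroid (10.4) and Dorsal spinal cord progenitors (10.4) for *Krt18*. At E9.5 they were Branchial arch neural crest (4.94), Somitic mesoderm (4.91) and Dorsal spinal cord progenitors (4.55) for *Krt8* and Frontonasal mesenchyme (4.55), Megakaryocyte progenitors (4.54) and Migratory neural crest (4.48) for *Krt18*.

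*Vim* was led by mesenchyme at E7.5 and by the Venous endothelium later. At E7.5 the levels were Mesenchyme (643 ± 60.9), Lateral plate mesoderm (454 ± 122) and Intermediate mesoderm (211 ± 8.55), and the lowest were Ectoderm (42.9), Visceral endoderm (41.7) and ExE ectoderm (5.59). Venous endothelium had 1642 and 1848 CPM in WT A and B at E8.5 and 1901, 2306 and 1867 in WT B, C and D at E9.5. The next types at E8.5 were YS mesothelium (1047 ± 37.5) and Mesenchyme (809 ± 57.7), and at E9.5 Hindbrain floor plate (1543 ± 161) and Dorsal midbrain neurons (1225 ± 111). The lowest were Surface ectoderm (19.7), Placodal ectoderm (11.7) and Erythroid (8.42) at E8.5 and Pharyngeal endoderm (50.8), Surface ectoderm (43.3) and Erythroid (28.5) at E9.5. Ranges of neighbours overlapped in 33 of 39 pairs at E9.5.

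The 3 repressors were not spread alike. *Snai2*, which acts in mesoderm and crest, was highest in the Mesenchyme at every stage, with 97.9 and 74.0 CPM in E7.5 WT A and B, 123 and 117 CPM in E8.5 WT A and B and 76.3, 66.5, 60.9 and 90.4 CPM in E9.5 WT A to D. The null libraries gave 104 and 56.5, then 118 and 125, then 77.3, 66.3, 64.2 and 76.9, and no stage separated the genotypes. The Mesenchyme was followed by Lateral plate mesoderm (14.5) and Paraxial mesoderm (2.82) at E7.5 and by YS mesothelium (103) and Allantois (65.0) at E8.5. *Snai2* was lowest in Visceral endoderm (0.298), ExE ectoderm (0.263) and Gut tube (no UMI, which allows up to 1.40 CPM) at E7.5, in Spinal cord progenitors (0.229), EMP (no UMI, which allows up to 2.21 CPM) and Foregut (no UMI, which allows up to 2.76 CPM) at E8.5 and in Late dorsal forebrain progenitors (0.921), Ventral hindbrain progenitors (0.835) and Erythroid (0.301) at E9.5. At E9.5 the Limb ectoderm, which is high in *Cdh1* and *Epcam*, came after the Mesenchyme and the YS mesothelium with 41.6 and 60.1 CPM from 26 and 25 UMIs. *Zeb1* was highest in Mesenchyme (35.1 ± 16.7), Paraxial mesoderm (28.2 ± 13.7) and Lateral plate mesoderm (17.0 ± 2.04) at E7.5, Venous endothelium (103 ± 24.7), Embryo proper endothelium (83.7 ± 7.85) and Mesenchyme (83.4 ± 13.8) at E8.5 and Dorsal midbrain neurons (155 ± 14.1), Venous endothelium (125 ± 6.26) and Mesenchyme (88.9 ± 10.8) at E9.5. The lowest types for *Zeb1* were Non-neural ectoderm (1.17), Gut tube (0.511) and Visceral endoderm (0.298) at E7.5 and Amniotic ectoderm (1.48), Pharyngeal endoderm (1.46) and Thyroid primordium (no UMI, which allows up to 4.50 CPM) at E8.5. Those at E9.5 were Thyroid primordium (4.34), Epidermis (3.91) and Limb ectoderm (1.60), all of them types with *Cdh1*. *Zeb2* was highest in Intermediate mesoderm (122 ± 12.03), Paraxial mesoderm (105 ± 3.66) and Ectoderm (89.2 ± 31.3) at E7.5, Migratory neural crest (219 ± 22.1), Hindbrain floor plate (198 ± 25.3) and Ventral hindbrain progenitors (170.2 ± 5.69) at E8.5 and Megakaryocyte progenitors (319.7 ± 45.6), Migratory neural crest (300.4 ± 43.2) and Ventral hindbrain progenitors (222 ± 2.70) at E9.5. Unlike *Zeb1*, *Zeb2* kept 83.5 CPM (median of types) in epiblast and ectoderm at E7.5, where *Zeb1* had 4.40 CPM. *Zeb2* was lowest in Gut tube (10.9), Visceral endoderm (4.07) and ExE ectoderm (2.21) at E7.5, in Pharyngeal endoderm (4.25), Amniotic ectoderm (3.59) and Limb ectoderm (2.56) at E8.5 and in Amniotic ectoderm (8.498), Thyroid primordium (7.84) and Pharyngeal endoderm (6.49) at E9.5.

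The neural crest showed how these genes met in 1 lineage. Migratory neural crest of E9.5 had 326, 344, 282 and 249 CPM of *Zeb2* in WT A to D, 115, 107, 110.1 and 83.3 of *Cdh2* and 21.2, 25.7, 15.9 and 45.4 of *Cdh11*. Branchial arch neural crest, the crest that has settled in the arches, had 38.8, 45.9, 44.5 and 50.3 CPM of *Zeb2*, 32.2, 30.7, 37.0 and 32.3 of *Cdh2* and 152, 129.6, 130.4 and 127 of *Cdh11* in the same libraries. In every library *Zeb2* was lower in the arches than in migratory crest. *Vim* was 639.5 ± 78.3 (SD, n = 4) CPM in migratory and 168 ± 18.9 (SD, n = 4) in branchial arch crest, and *Snai2* 1.92 ± 1.50 (SD, n = 4) and 18.1 ± 3.30 (SD, n = 4). Since the labels come from expression, these differences between types are descriptions and carry no test. Venous endothelium held *Vim*, *Zeb1* and *Zeb2* with little *Cdh11*, namely 125 ± 6.26 (SD, n = 3) CPM of *Zeb1*, 59.5 ± 21.7 (SD, n = 3) of *Zeb2* and 6.23 ± 3.75 (SD, n = 3) of *Cdh11* at E9.5, while the Embryo proper endothelium of E8.5 had 32.8 CPM of *Cdh11*.

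**Figure D2:**
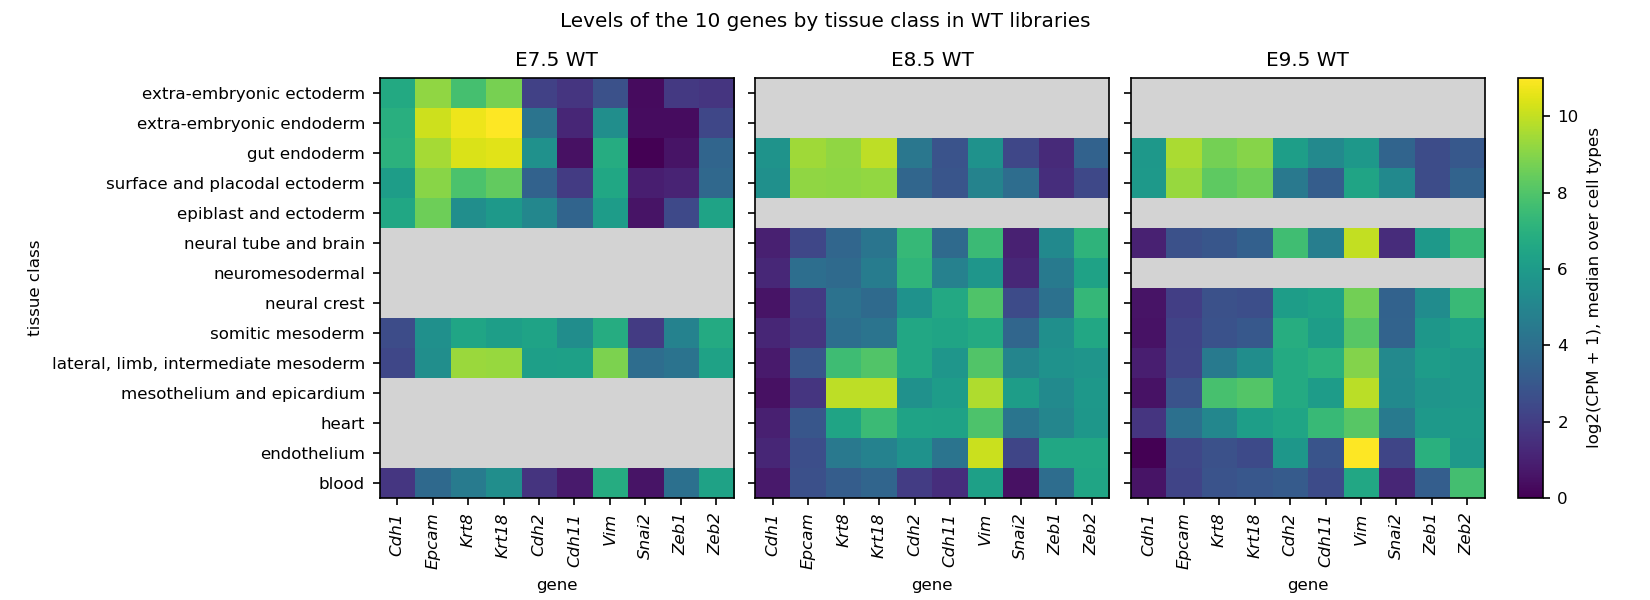
Level of the 10 genes (columns) in tissue classes (rows) of WT libraries, in a panel per stage, as log2(CPM + 1) of the median over the cell types of a class, from dark (0) to yellow (11); grey marks classes with no type of 2 or more WT libraries. *Cdh1* and *Epcam* fill endoderm, epiblast and surface ectoderm, *Zeb1* and *Zeb2* fill most of the other rows, and *Vim* of the neural tube is brighter at E9.5 (1022 CPM) than at E8.5 (179.6 CPM).

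Across the 40 WT types of E9.5, the correlation of log2(CPM + 1) was 0.97 between *Krt8* and *Krt18*, 0.95 between *Cdh1* and *Epcam*, -0.79 between *Cdh1* and *Zeb1*, -0.81 between *Cdh1* and *Zeb2*, and 0.32 between *Cdh1* and *Snai2* (Pearson). Spearman's rho for the same 5 pairs was 0.91, 0.57, -0.30, -0.43 and 0.24, so that those of *Cdh1* with *Epcam* and the Zeb genes were much weaker by rank. Across the 11 types of E7.5 the last 3 were -0.92, -0.64 and -0.70 by Pearson and -0.89, -0.56 and -0.83 by Spearman. The sign for *Snai2* thus changed between the sets of types, while both Zeb genes stayed opposite to *Cdh1*. These values describe types that share libraries and depth and carry no test.

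Among 9498 genes with a mean of at least 5 CPM over 131 WT pairs of stage and type, the 5 genes most like *Cdh1* were *Esrp1*, *Rab25*, *Ap1m2*, *Epcam* and *Cldn6* (r from 0.95 to 0.93), and those most like *Epcam* were *Cldn7*, *Rab25*, *Ap1m2*, *Cdh1* and *Cldn6* (0.94 to 0.93). They include *Esrp1*, a splicing regulator of epithelia, the claudins and the epithelial vesicle protein *Rab25*. Nearest to *Krt8* were *Krt18*, *Krt19*, *Dsg2*, *Dsp* and *Llgl2* (0.97 to 0.79) and to *Krt18* *Krt8*, *Krt19*, *Dsg2*, *Dsp* and *Llgl2* (0.97 to 0.81), with the desmosome genes *Dsg2* and *Dsp* in both lists. For *Vim* and *Snai2* the likeness was weaker. The nearest were *Lix1l*, *Zeb1*, *Spag9*, *Cep170* and *Ndn* for *Vim* (0.73 to 0.67) and *Bnc2*, *Pcolce*, *Col1a1*, *Twist2* and *Dact3* for *Snai2* (0.81 to 0.77). The genes nearest to *Cdh2* were *Gjc1*, *H1fx*, *Tenm4*, *Ift74* and *Mthfd2l* (0.83 to 0.75) and to *Cdh11* *Clmp*, *Dixdc1*, *Col9a1*, *Pcdh18* and *Mfap4* (0.78 to 0.73).

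Stage changes were tested within a labelled type between WT libraries, with the quasi-likelihood test of edgeR and Benjamini-Hochberg adjustment over all genes of a type, at an adjusted p under 0.05 and an absolute log2 fold change over 1. Stage and library batch cannot be told apart. From E7.5 to E8.5, 2 types had enough cells, the Lateral plate mesoderm and the Mesenchyme, and *Cdh1* was too low to be tested in either. Of 18 pairs of gene and type, 6 were called, beside 8.55% of the 18554 tests of all genes. Without the fold threshold 14 passed, beside 19.5% of all tests. *Epcam* in the Lateral plate mesoderm was 33.0 and 52.2 CPM in WT A and B at E7.5 and 4.53 and 8.71 at E8.5 (log2 fold change -2.65, SE 0.32, edgeR adjusted p = 2.76e-05). *Zeb1* in the same type was 18.4 and 15.6 CPM at E7.5 and 44.3 and 57.9 at E8.5 (log2 fold change 1.71, SE 0.21, edgeR adjusted p = 9.83e-06), and in the Mesenchyme it went from 46.9 and 23.3 to 93.2 and 73.6 CPM (log2 fold change 1.24, SE 0.30, edgeR adjusted p = 0.0333). *Epcam* fell and *Zeb1* rose without overlap of the libraries, and the share of all genes that separate in this way was not counted. In the Lateral plate mesoderm *Krt8* and *Krt18* fell as well (log2 fold change -1.15 and -1.01), as did *Zeb2*, from 66.5 and 78.1 to 29.2 and 38.9 CPM (log2 fold change -1.02, SE 0.18, edgeR adjusted p = 3.70e-04). *Zeb1* and *Zeb2* thus moved in opposite directions in this type. Null libraries, tested alone, gave 5 calls of 18 (beside 6.9% of all tests), among them *Zeb1* in both types (log2 fold change 1.59 and 1.63), *Zeb2* (-1.33) and *Epcam* (-1.72) in the Lateral plate mesoderm, and *Epcam* in the Mesenchyme (-2.34). The difference of the stage change between null and WT was called for 0 of the 18 pairs (0% of all tests, edgeR), and 0 had an unadjusted p under 0.05. Without E8.5 WT A the count of WT calls was 1.

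From E8.5 to E9.5, 31 types could be tested in WT libraries, with 242 pairs of gene and type. Of these 35 were called, 22 higher and 13 lower at E9.5, which is 14.5% against 3.19% of the 270880 tests of all genes. Erythroid cells, taken above as a background for the cadherins, gave 3 of the calls, all at low levels, and 32 lay in other types. The pairs were unevenly spread over the genes. *Vim* accounted for 11 of the 22 higher calls and the 2 keratins for 10 of the 13 lower calls, 5 for *Krt8* and 5 for *Krt18*. Among all genes the share was 2.17% for higher and 1.02% for lower calls. Without the fold threshold 68 pairs passed, beside 9.64% of all tests. Without E8.5 WT B the total was 19, in a fit over all libraries that left E8.5 with WT A alone.

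*Vim*, which neural progenitors carry as an intermediate filament, had its largest fitted increases in the neural tube. In the Optic vesicle it was 41.2 and 31.9 CPM in WT A and B at E8.5 and 670.4, 456, 499.97 and 427 in WT A to D at E9.5 (log2 fold change 3.64, SE 0.25, edgeR adjusted p = 2.74e-04). In Ventral hindbrain progenitors it went from 228 and 121 to 1440.2, 1139, 1181 and 927 CPM (log2 fold change 2.52, SE 0.35, edgeR adjusted p = 0.0117). The lowest E9.5 library stood above the highest E8.5 library in both, and the share of all genes that do so was not counted. Dorsal spinal cord progenitors (1.96) and Dorsal hindbrain progenitors (1.86) were called too, while the Midbrain/Hindbrain boundary (2.34), Spinal cord progenitors (2.31) and the Hindbrain floor plate (1.08) did not pass. The median log2 fold change over the 7 neural tube types was 2.31, with a range from 1.08 to 3.64. Outside the neural tube *Vim* was called higher in Placodal ectoderm (2.15), Erythroid (1.96), Cranial mesoderm (1.45), Posterior somitic tissues (1.14), Pharyngeal endoderm (1.11), Surface ectoderm (1.05) and Presomitic mesoderm (1.02). The 3 types with the most *Vim* at E8.5 were not called. The log2 fold change was 0.13 in Venous endothelium, -0.03 in YS mesothelium and -0.32 in the Mesenchyme. Erythroid cells were among the 3 lowest types for *Vim* at both stages, at 7.23 and 9.60 CPM in E8.5 and 35.5, 30.9, 29.0 and 18.5 CPM in E9.5 WT libraries. Like the other Erythroid calls, that of *Vim* is not read as a change of expression.

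*Krt8* and *Krt18* were called lower in mesoderm and neural tube. In the Mesenchyme *Krt8* was 1296 and 1319 CPM in WT A and B at E8.5 and 657, 533, 385 and 642 in WT A to D at E9.5 (log2 fold change -1.36, SE 0.20, edgeR adjusted p = 0.00881). *Krt18* went from 931 and 1025 to 413, 329, 269 and 368 CPM (log2 fold change -1.63, SE 0.12, edgeR adjusted p = 4.76e-06). No E9.5 library reached an E8.5 library for either gene, a separation that was not counted over all genes. In the Hindbrain floor plate *Krt18* was 72.4 and 120.1 CPM at E8.5 against 34.3, 20.5, 16.8 and 24.0 at E9.5 (log2 fold change -2.16, SE 0.31, edgeR adjusted p = 0.00425). Both keratins were also called lower in the Optic vesicle (-1.57 for *Krt8* and -1.23 for *Krt18*) and Posterior somitic tissues (-1.73 and -1.57). *Krt8* alone was called lower in Dorsal spinal cord progenitors (-1.43) and in the Surface ectoderm (-1.04), a type with *Cdh1*. *Krt18* alone was called lower in the Hindbrain floor plate and Cranial mesoderm (-1.24), with no test of the difference between the 2 genes. The fitted change was negative in 27 of 30 types for *Krt8* and in 26 of 30 for *Krt18*, with medians of -0.996 and -1.18, while the median of all genes tested lay between -0.0035 and 0.0457 in the 31 types. Part of these changes and calls rest on low levels. *Krt8* had a median of 11.4 CPM at E8.5 and 6.68 at E9.5 over neural tube types and 14.7 and 5.85 over somitic types, beside 8.49 and 6.01 in blood. For *Krt18* these were 18.3 and 9.29, 17.7 and 7.23, beside 10.9 and 7.01. Dorsal spinal cord progenitors, called for *Krt8*, had the lowest *Krt8* of the E9.5 types, 4.55 CPM. Amniotic ectoderm, the type with the most *Krt8*, had a log2 fold change of -0.02.

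**Figure D3:**
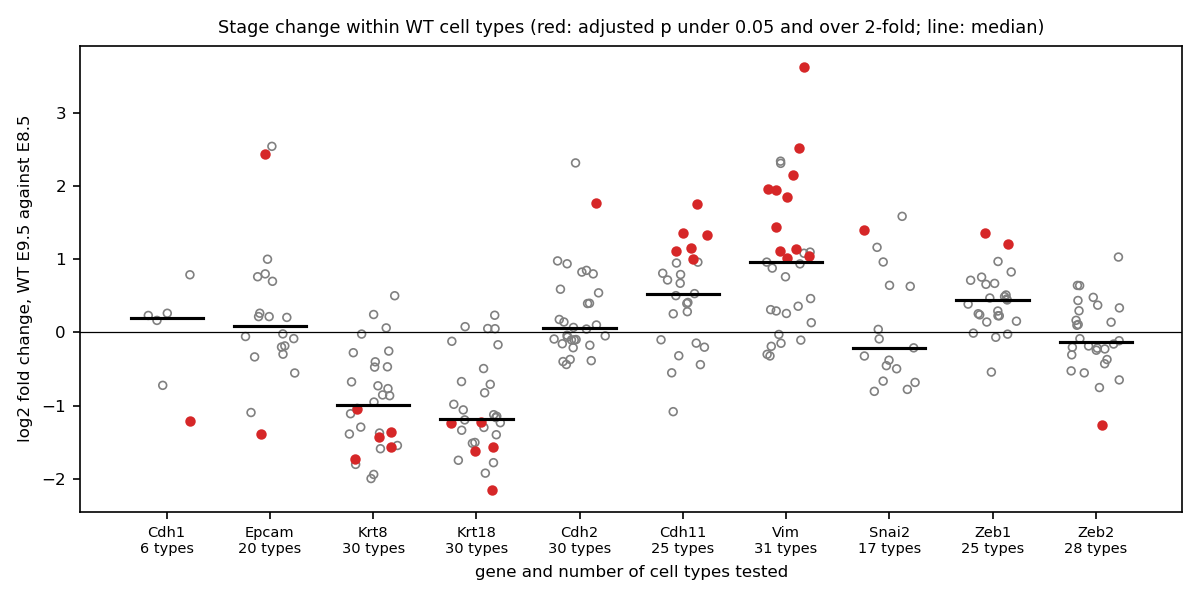
Log2 fold change of each gene within WT cell types, E9.5 against E8.5 (vertical axis), with 1 point per cell type tested; red points passed an adjusted p under 0.05 and a log2 fold change over 1, and the black line is the median over types. The median stands at 0.96 for *Vim*, -0.996 for *Krt8* and -1.18 for *Krt18*, and *Cdh1* was high enough to be tested in 6 types.

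Among the cadherins, *Cdh11* was called higher in 6 types and lower in none over the fold threshold. In Pharyngeal mesoderm it was 22.5 and 31.2 CPM in WT A and B at E8.5 and 93.0, 138, 112 and 65.6 in WT A to D at E9.5 (log2 fold change 1.76, SE 0.34, edgeR adjusted p = 7.78e-04). The other types were Ventral hindbrain progenitors (1.36), Pharyngeal endoderm (1.34), Cardiopharyngeal progenitors FHF (1.15), Erythroid (1.11, at 2.11 and 2.63 and 3.98, 5.45, 4.58 and 4.57 CPM, the background level, so that the call is not read as a change of expression) and Spinal cord progenitors (1.01). *Cdh2* was called in 1 type, the Pharyngeal endoderm, where it rose from 23.2 and 16.2 to 75.6, 75.7 and 73.8 CPM (log2 fold change 1.77, SE 0.18, edgeR adjusted p = 5.20e-07). That type kept *Cdh1*, whose mean was 33.2 ± 3.41 (SD, n = 2) CPM at E8.5 and 44.3 ± 7.88 (SD, n = 3) at E9.5, and the share of its thinned cells with a UMI of both cadherins was 7.69% ± 4.35 and 15.6% ± 3.63 (15.8% and 45.5% unthinned). *Foxa2* and *Shh* were lower in this label than in other cells of E9.5. *Cdh1* was called in 1 of 6 types, the Placodal ectoderm, from 49.5 and 43.6 to 21.6 and 22.2 CPM (log2 fold change -1.21, SE 0.28, edgeR adjusted p = 0.0072). *Cdh2* there stood at 108 and 72.7 CPM at E8.5 against 194 and 159 at E9.5, below the fold threshold (log2 fold change 0.83, SE 0.18, edgeR adjusted p = 0.003).

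The repressors and *Epcam* were called in few types. In Branchial arch neural crest *Zeb2* fell from 91.0 and 101 to 38.8, 45.9, 44.5 and 50.3 CPM (log2 fold change -1.26, SE 0.12, edgeR adjusted p = 4.31e-08), and *Zeb1* rose from 22.6 and 20.9 to 65.0, 68.5, 50.3 and 50.5 CPM (log2 fold change 1.21, SE 0.17, edgeR adjusted p = 1.65e-05). The E8.5 and E9.5 libraries did not overlap for either gene, and the share of all genes that separate so was not counted. *Zeb1* and *Zeb2* moved in opposite directions as in the Lateral plate mesoderm of the earlier step. In Migratory neural crest *Zeb2* was 203 and 235 CPM at E8.5 against 326, 344, 282 and 249 at E9.5, which was not called (log2 fold change 0.30, SE 0.11, edgeR adjusted p = 0.07). *Zeb1* was also called higher in Cardiopharyngeal progenitors SHF (1.37), and *Snai2* in Pharyngeal mesoderm (log2 fold change 1.40, SE 0.42, edgeR adjusted p = 0.0378), where it was 20.3 and 9.37 CPM at E8.5 against 30.1, 33.4, 56.6 and 55.9 at E9.5. *Epcam* was higher in the Midbrain/Hindbrain boundary (2.44) and lower in Erythroid cells (-1.39), both at low levels, from 2.08 to 12.6 and from 4.58 to 1.09 mean CPM. The Erythroid values lie in the type taken as background for the cadherins. No background share was given for *Epcam*, and its Erythroid call is not read as a change of expression.

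The null libraries were tested for the same step on their own. Of 152 pairs, 34 were called, beside 2.88% of all tests in null cells. Null libraries came from the same embryos as WT libraries, so the 2 sets are not independent. *Vim* was called higher in Cranial mesoderm (1.03), Dorsal spinal cord progenitors (1.89), Midbrain/Hindbrain boundary (2.59), Migratory neural crest (1.11), Optic vesicle (3.26) and Ventral hindbrain progenitors (2.79) (log2 fold changes in null cells). *Krt8* was called lower in Cardiomyocytes FHF 1 (-1.25), Cardiopharyngeal progenitors FHF (-1.90), Hindbrain floor plate (-2.49), Mesenchyme (-1.60), Optic vesicle (-1.46), Sclerotome (-1.36) and Ventral hindbrain progenitors (-1.29). *Krt18* was called lower in Cardiomyocytes FHF 1 (-1.12), Cardiopharyngeal progenitors FHF (-1.74), Dorsal spinal cord progenitors (-1.13), Mesenchyme (-1.91), Migratory neural crest (-1.55), Optic vesicle (-1.28), Sclerotome (-1.17), Ventral hindbrain progenitors (-2.20) and YS mesothelium (-1.11). Among the cadherins, *Cdh11* was called higher in Cardiopharyngeal progenitors FHF (1.46), Hindbrain floor plate (1.26), Limb mesoderm (1.15), Pharyngeal endoderm (1.47) and Ventral hindbrain progenitors (1.82) and *Cdh2* in Pharyngeal endoderm (1.96), Surface ectoderm (2.17) and Thyroid primordium (1.79). The remaining calls were *Epcam*, higher in Cardiopharyngeal progenitors FHF (2.32) and Optic vesicle (1.43), *Zeb1*, higher in Allantois (1.12), and *Snai2*, lower in Amniotic ectoderm (-1.14). Some of these calls lie in types with low levels. In WT cells of E8.5 *Epcam* was 6.55 to 6.65 CPM in heart types and 1.93 to 7.59 in neural tube types. WT Migratory neural crest had 11.3 CPM of *Krt18* at E8.5 and 4.48 at E9.5. *Krt18* in Cranial mesoderm, called in WT and not in null cells, was 19.3 and 36.9 CPM at E8.5 against 10.1, 20.3, 9.25 and 15.1 at E9.5 in WT, and 12.7 and 22.5 and 23.9, 15.7, 13.6 and 14.8 in null libraries (0.02, SE 0.31). The difference of the stage change between genotypes was tested in 1 fit per type. None of 153 pairs passed (edgeR, 7 at an unadjusted p under 0.05, smallest adjusted p = 0.699), and 0.00808% of the 173303 tests of all genes passed.

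**Figure D4:**
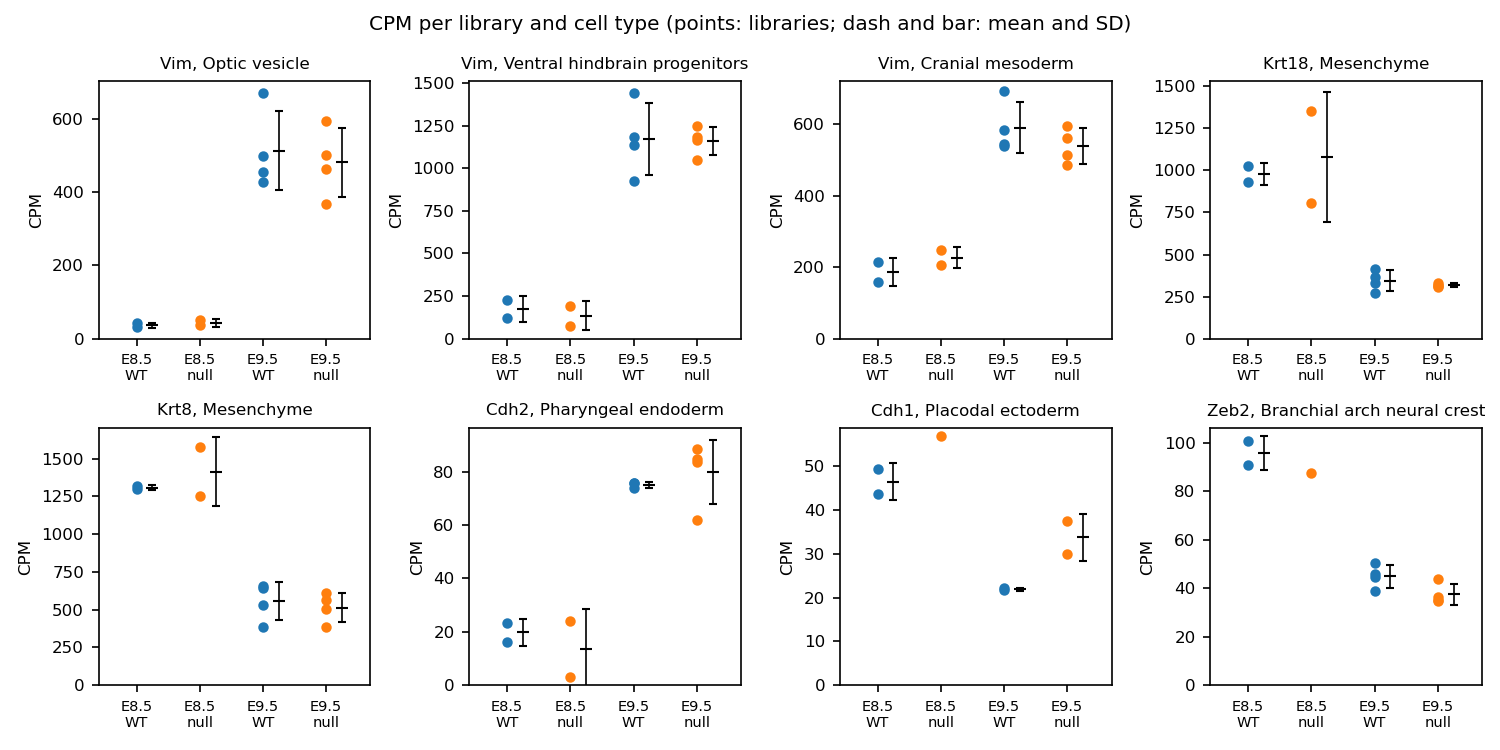
CPM in every library with more than 15 cells of the type (points; WT blue, null orange), with the mean and SD beside groups of 2 or more, for 8 pairs of gene and cell type at E8.5 and E9.5. In each panel the E8.5 and E9.5 points separate in WT libraries, for example 41.2 and 31.9 against 670.4, 456, 499.97 and 427 CPM for *Vim* in the Optic vesicle, and the null points of the 2 stages separate as well. The pairs are shown as examples, and the share of all genes that separate in this way was not counted. Null and WT libraries came from the same embryos and are not independent.

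Other genes of junctions, keratins and mesenchyme were counted for the same WT step, and in all 716 pairs 31 were called higher and 41 lower, where 2.17% of the tests of all genes were higher and 1.02% lower. Of 4 desmosome genes in 64 pairs, 0 were called higher and 11 lower, all for the linker *Dsp* or the plakophilin *Pkp2*. Some of these rest on low levels. *Dsp* in Migratory neural crest was 5.35 and 6.29 CPM in E8.5 WT A and B and 1.37, 1.07, 2.48 and 1.20 in E9.5 WT A to D. In Ventral hindbrain progenitors it was 9.11 and 3.78 against 3.83, 2.71, 3.98 and 4.81 CPM, so that the stages overlapped. *Pkp2* in the Mesenchyme was 38.1 and 47.8 CPM in E8.5 WT A and B and 14.03, 10.9, 14.2 and 23.2 CPM in E9.5 WT A to D (log2 fold change -1.51). Of 9 epithelial regulators in 66 pairs, 0 were called higher and 5 lower, with *Rab25*, a vesicle protein of epithelia, at 58.1 and 77.1 CPM in Surface ectoderm at E8.5 against 26.1, 35.8 and 32.9 at E9.5 (-1.24). Mesenchymal regulators gave 17 higher and 4 lower calls in 130 pairs, 8 of the higher ones for *Prrx1*. The *Prrx1* calls include Erythroid cells (2.31), where calls are not read as a change of expression. They also include neural types, namely Spinal cord progenitors (3.08), Optic vesicle (3.05), Midbrain/Hindbrain boundary (1.93) and Ventral hindbrain progenitors (1.44). The others were in Presomitic mesoderm (4.09), Posterior somitic tissues (1.14) and Cranial mesoderm (1.04). *Twist1* in Presomitic mesoderm was 6.29 and 7.35 CPM at E8.5 against 156 and 201 at E9.5 (4.54). The 7 matrix and receptor genes gave 7 higher and 10 lower of 188, the 7 tight junction genes 4 and 4 of 87, the 5 catenins 0 and 1 of 120, and the 4 other cadherins 0 and 3 of 34. The other keratins had 3 higher and 3 lower calls in 27 pairs, with *Krt19* in Surface ectoderm at 301 and 306 CPM at E8.5 against 171, 142 and 135 at E9.5 (-1.14). *Krt14*, a keratin of stratified epithelia, was called higher there, from 0 and 1 UMIs in WT A and B at E8.5 to 43, 22 and 15 UMIs in WT A, B and D at E9.5. In Surface ectoderm the keratins thus moved in both directions, *Krt14* up and *Krt8* and *Krt19* down. In null libraries tested alone, 19 of 464 pairs were called higher and 22 lower, beside 2.88% of all tests in either direction. Epithelial regulators moved in both directions there, with 3 higher (*Esrp2*, *Grhl3* and *St14* in Amniotic ectoderm) and 6 lower calls in 44 pairs, and desmosome genes gave 0 higher and 3 lower in 52. From E7.5 to E8.5, 8 of 53 WT pairs were called higher and 4 lower, beside 8.55% of all tests in either direction. The higher ones were *Prrx1* and the P-cadherin gene *Cdh3* in both types (1.54 in Lateral plate mesoderm and 1.46 in Mesenchyme for *Cdh3*) and *Twist1*, *Twist2*, *S100a6* and the tight junction gene *F11r* in the Mesenchyme. The lower ones were the desmosomal cadherin *Dsg2* in both types and *Cdh4* and *Sparc* in the Lateral plate mesoderm. *Dsg2* in the Lateral plate mesoderm went from 55.8 and 66.0 to 12.6 and 19.0 CPM (-1.88).

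Null and WT cells were then compared within types of the same stage. No pair of the 10 genes and a type was called in 61 pairs (7 types) at E7.5, in 153 pairs (20 types) at E8.5 or in 285 pairs (37 types) at E9.5, where 0.186%, 0.0609% and 0.12% of the tests of all genes were called. With edgeR, 4, 13 and 31 pairs had an unadjusted p under 0.05, which is 6.56%, 8.497% and 10.9% of pairs against 4.06%, 4.32% and 6.26% of all tests. DESeq2 called 0, 1 and 0 pairs and limma-voom 0, 0 and 0. The median log2 fold change over pairs was -0.04, -0.04 and -0.03, and the median over all genes of a type lay within -0.01 and 0.01.

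A smaller change passed the test without the fold threshold. *Vim* in Branchial arch neural crest at E9.5 was 156, 151, 192 and 173 CPM in WT A to D and 122, 126, 130.3 and 135 in null A to D (log2 fold change -0.39, SE 0.08, edgeR adjusted p = 0.0215). The highest null library was below the lowest WT library, and the share of all genes that separate so was not counted. Of all tests at E9.5, 0.271% passed without the fold threshold. At E8.5 WT A and B had 182 and 184 CPM and the single null library with enough cells 148, below the 2 libraries per genotype that the test required. The adjusted p was 0.00905 with DESeq2 and 0.0219 with limma-voom, and 0.0121 with all 16 libraries in 1 fit. It rose to 0.104 without E9.5 WT C and to 0.0505 without E9.5 null A, with log2 fold changes of -0.31 and -0.35.

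Other settings added calls at E8.5 in Erythroid cells, at levels of a few CPM. That type serves above as background for *Cdh1* and *Cdh2* alone, and no background share was given for the other genes. These values are not read as differences in expression, and their source was not tested. *Cdh2* there was 3.54 and 4.53 CPM in WT A and B (67 and 74 UMIs) and 0.935 and 0.795 in null A and B (23 and 4 UMIs), a log2 fold change of -2.15 (edgeR adjusted p = 0.0774), with adjusted p = 0.0397 by DESeq2 and 0.00661 with all 16 libraries in 1 fit. *Epcam* was 3.17 and 5.99 CPM in WT and 1.18 and 0.994 in null libraries, and *Cdh11* 2.11 and 2.63 CPM in WT and 0.691 and 0.596 in null libraries. These 3 genes are named because other settings called them. Of the 9 of the 10 genes tested in this type, 5 were lower in null cells without overlap (these 3, *Vim* and *Krt8*), beside 13.5% of all genes tested, and *Zeb1* was higher, beside 13.3%. *Vim* was 7.23 and 9.60 CPM in WT and 5.08 and 3.58 in null libraries of the same type.

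In whole libraries, where cell types and levels within them are mixed, the E7.5 fractions differed in make-up. Extra-embryonic ectoderm and extra-embryonic, visceral and parietal endoderm made up 21.4% (18.5 to 24.6%) of the cells of WT A and 15.1% (13.5 to 16.9%) of WT B (exact binomial 95% intervals, which cover counting error only). In null A the share was 0.184% (0.0502 to 0.471%), and in null B 0 of 360 cells, which allows up to 0.833% by 3 cells of the total and up to 1.02% by the exact interval. The paper states that the anterior visceral endoderm of conventional chimeras comes from the host embryo. Donor origin and genotype cannot be told apart in these shares. In whole libraries fewer cells of a type and less RNA per cell cannot be told apart. *Cdh1* was 54.7 and 49.0 CPM in WT A and B and 31.1 and 35.4 in null A and B (log2 fold change -0.59, SE 0.12, edgeR adjusted p = 0.0532). *Epcam* was 252 and 345 CPM in WT and 185 and 204 in null libraries, and *Krt18* 520.0 and 345 CPM in WT and 304 and 314 in null libraries. These 3 genes were lower in null libraries without overlap, beside 27.6% of all genes tested. *Cdh2* (40.5 and 50.5 CPM in WT and 52.4 and 56.1 in null libraries) and *Zeb2* (68.5 and 69.9 in WT and 86.3 and 73.3 in null libraries) were higher without overlap, beside 14.1%, the other 5 overlapped, and none passed with edgeR. With DESeq2 and no fold threshold 2 of the 10 genes passed, beside 3.5% of all genes, *Cdh1* (log2 fold change -0.59, DESeq2 adjusted p = 0.00315) and *Epcam* (-0.57, DESeq2 adjusted p = 0.0222). Without the cells of those 4 types *Epcam* was 149.97 and 283 CPM in WT and 184 and 204 in null libraries and *Krt18* 463 and 264 in WT and 301 and 314 in null libraries, so that both overlapped. *Cdh1* was then 39.2 and 40.1 CPM in WT and 31.1 and 35.4 in null libraries. None of the 10 genes was called at any stage (edgeR, 3 at E7.5, 0 at E8.5 and 0 at E9.5 with an unadjusted p under 0.05, and 0 by DESeq2 over the fold threshold), beside 2.35%, 0.0278% and 0.586% of all genes. Among the other listed genes at E7.5, *Cldn3* (-3.44), *Esrp2* (-3.37), *Cldn4* (-3.06) and *S100a6* (-1.89) were called lower in null libraries, with the extra-embryonic types included.

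To take out the make-up, the level of each gene was averaged over the cell types present in every library of a stage, each type with the same weight. The types numbered 7 at E7.5, 20 at E8.5 and 20 at E9.5. The sets differed between stages, and E7.5 and E8.5 shared only the Lateral plate mesoderm and the Mesenchyme. At E9.5 the Epidermis was the only type of gut endoderm or surface and placodal ectoderm in the set. The averaged levels were compared with limma-trend on log2(CPM + 1). *Cdh1* was 31.7 and 29.9 CPM in WT A and B at E7.5 and 23.3 and 28.0 in null A and B on this scale. At E9.5 it was 4.94, 5.39, 5.62 and 5.04 in WT A to D and 5.09, 3.93, 5.03 and 5.13 in null A to D. The genotypes overlapped at E9.5, and the mean difference of null minus WT over the stages was -0.10 (95% interval -0.26 to 0.06) on the log2 scale. For *Vim* it was 0.02 (95% interval -0.09 to 0.13), for *Krt8* -0.06 (95% interval -0.24 to 0.11), for *Cdh2* -0.06 (95% interval -0.18 to 0.06) and for *Epcam* 0.02 (95% interval -0.21 to 0.25). All 5 intervals include 0, which does not show that the genotypes are alike.

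*Cdh11* and *Zeb2* were the genes whose mean interval did not include 0, at -0.11 (95% interval -0.19 to -0.02) and -0.09 (95% interval -0.17 to -0.01), and neither passed the adjustment over all genes (limma adjusted p = 0.163 and 0.219). *Zeb2* was 110.0, 111, 113 and 107 CPM in WT A to D and 109, 99.8, 108 and 101 in null A to D at E9.5, and the exact two-sided permutation test within stages gave p = 0.0516, where 0.000794 is the smallest that 2520 arrangements allow. For *Cdh11* the same exact permutation test gave p = 0.117, and the difference at E7.5 was -0.28 (95% interval -0.45 to -0.12). None of the 10 genes was called at any of the 3 stages or in their mean (limma, 1, 0, 0 and 2 with an unadjusted p under 0.05), beside 0.63%, 0.286%, 0.756% and 3.26% of all genes tested. The difference of the genotype effect between stages was not called for any of them either (1 of 10 with an unadjusted p under 0.05 from E7.5 to E8.5, *Cdh11*, and 0 from E8.5 to E9.5), beside 0.0084% and 0.0168% of all genes. Each stage was averaged over its own types, so stage and set of types cannot be told apart in these differences. Among the other listed genes *Cdh4* was called in the mean over stages (-0.33, limma adjusted p = 0.0399), and 1 of 824 pairs was called within types at E9.5 (beside the 0.12% of all genes given above), *Krt19* in the Placodal ectoderm, with 15.2 and 6.65 CPM in WT A and D and 32.9 and 32.2 in null A and B (1.55, edgeR adjusted p = 0.0208). In Surface ectoderm *Krt19* stood the other way, with E9.5 levels of 171, 142 and 135 CPM in WT A, B and D and 75.8 and 78.3 in null A and B (log2 fold change -0.97, edgeR adjusted p = 0.00296), which passed the test but not the fold threshold. At E8.5 it was 301 and 306 CPM in WT and 228 and 121 in null libraries there, which did not pass the test (-0.71, edgeR adjusted p = 0.75).

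**Figure D5:**
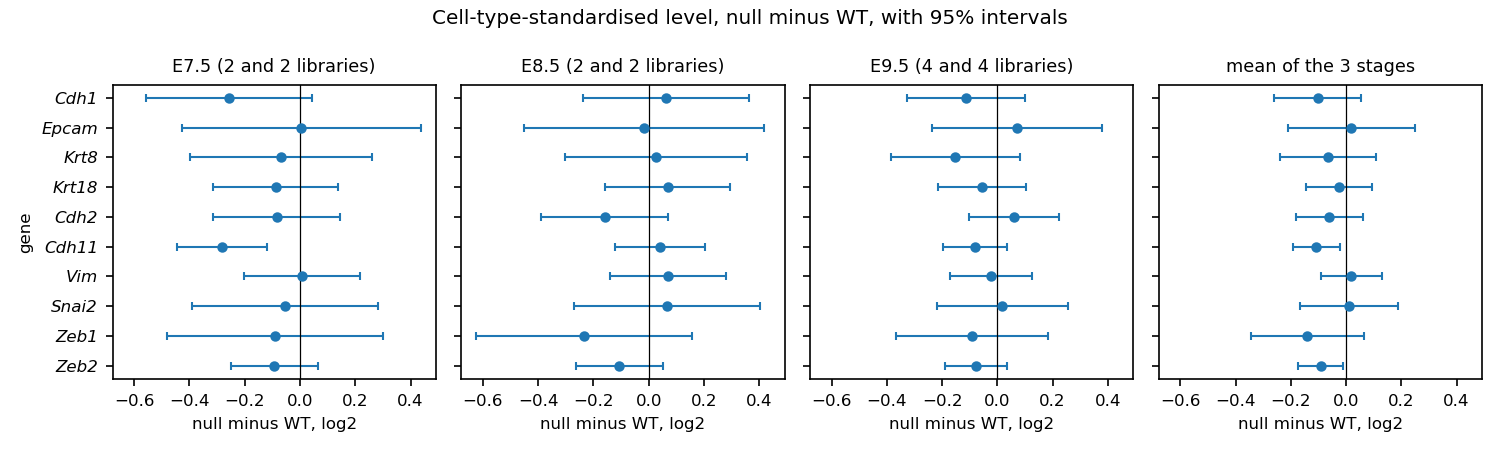
Difference of null minus WT in the cell-type-standardised level of each gene, on the log2(CPM + 1) scale (horizontal axis), with 95% intervals from limma, in 1 panel for each stage and 1 for the mean of the 3 stages. The mean differences lie between -0.14 (*Zeb1*) and 0.02 (*Vim* and *Epcam*), and the intervals of *Cdh11* and *Zeb2* are the 2 that do not reach 0 in the last panel.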

How the data were processed

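Per the labels and the study's methods, the authors counted 10x reads with Cell Ranger against mm10 with the tdTomato sequence added, kept barcodes by UMIs, genes and percent of mitochondrial and ribosomal RNA, called doublets, and took each cell's type from its neighbours in a mouse gastrulation atlas. The deposited matrix holds raw UMI counts of 29453 genes in 41832 cells of 192657 barcodes, and the deposited metadata hold UMI counts and the percent of mitochondrial UMIs per barcode. Per cell, 10003 to 99882 UMIs were found. Here 3395 called doublets and 596 WT singlets with a tdTomato UMI were left out, and counts were summed per library and type, with more than 15 cells required.

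Tests used edgeR 4.0.16 (quasi-likelihood, filterByExpr, TMM) and limma 3.58.1 in R 4.3.3, fitted on 21277 genes after 8176 mitochondrial, ribosomal protein, globin, Y-linked, Xist, Tsix, tdTomato and unnamed predicted genes were left out, with 2 libraries or more per group. The statistical scripts were tested on simulated data. DESeq2 1.42.0, limma-voom, other filters, cell minimums, cell sets, scalings, pseudocounts and fits without 1 library were alternatives. Thinning, exact binomial intervals and correlations used numpy 2.4.6, scipy 1.17.1 and pandas 2.3.3. Likeness was ranked as Pearson's r of log2(CPM + 1), with the 5 highest genes named for 8 of the 10 genes, and the lists of *Zeb1* and *Zeb2* are not reported here. For each gene the text names the 3 highest and 3 lowest types of each stage, among those with enough cells in 2 or more WT libraries. Where more types tied without a UMI, as for *Cdh1* at E8.5, all are named. The text also gives the types in which a gene was called at the fold threshold. Neural crest, Erythroid and other values were chosen after they were seen. The genes and lists were chosen with earlier results of these data known. Proteins were not used, and the promoters of 6 genes are not reported here.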

Additional observations from a re-analysis of the deposited data

Results flagged for a closer look

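In groups of 4 E9.5 libraries, 5 of 40 tests found the highest or lowest library farther from the others than Dixon's criterion allows, and chance gives about 1 in 20. E9.5 WT D was the library in 3 of the 5. In whole libraries it had the highest *Snai2*, 18.9 CPM, where the 4 WT libraries in rising order were 11.7, 12.6, 12.9 and 18.9 CPM. It also had the lowest *Zeb2*, 87.7 CPM (87.7, 111, 113 and 116). In the cell-type-standardised level it had the lowest *Cdh2*, 112 CPM (112, 124, 126 and 126). E9.5 null A had the highest *Zeb1* in whole libraries, 66.3 CPM (57.3, 58.1, 58.4 and 66.3). E9.5 null B had the lowest standardised *Cdh1*, 3.93 CPM (3.93, 5.03, 5.09 and 5.13). The part of library make-up or depth in these values was not tested.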

How the results depend on the processing

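Of the counts of called pairs, those between genotypes within types changed at 2 stages. At E8.5 the count of 0 became 1 with DESeq2, 4 without the filter on low counts, 1 with null cells that had a tdTomato UMI and 3 with all 16 libraries in 1 fit, and 1 to 2 when 1 library was left out. These calls were of *Cdh2*, *Epcam* and *Cdh11* in Erythroid cells and of *Vim* in the Thyroid primordium. At E9.5 the count of 0 became 1 without the fold threshold (*Vim* in Branchial arch neural crest) and 1 without the filter (*Epcam* in YS mesothelium), and was 0 to 1 when 1 library was left out (1 without E9.5 null D, the same pair). From E7.5 to E8.5 the 6 WT calls became 14 without the fold threshold and ranged from 1, without E8.5 WT A, to 6 when 1 library was left out. From E8.5 to E9.5 the 35 WT calls became 68 without the fold threshold and ranged from 19, without E8.5 WT B, to 42, without E9.5 WT D. Leaving out a library used the fit over all 16 libraries, which gave 34 calls with all of them, and a lone library was assumed to vary like the others. The cause was not tested.

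Counts in whole libraries were 0 in every setting run with 1 choice changed, and 2 at E7.5 (*Cdh1* and *Epcam*) with DESeq2 and no fold threshold together, a setting added after seeing the data. Counts in standardised levels stayed at 0 in every setting run. No fitted change turned its direction past the threshold, and under other settings single stage changes kept their side of it in 257 cases and lost it in 100. For whole libraries and for the stage change the fit over all 16 libraries was chosen after seeing the data, as were the stage tests of the null libraries and of their difference from WT.

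No paired analysis was possible because the library names match no sample title, so libraries cannot be tied to embryo pools. E7.5 and E8.5 had 2 libraries per genotype, *Cdh1* was high enough to be tested from E8.5 to E9.5 in 6 types, and the Erythroid calls rest on levels of a few CPM.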

Other observations

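A pair of values stood outside the comparisons above and was chosen after the data were seen. *Epcam* in YS mesothelium of E9.5, a type with keratins and *Vim* but little *Cdh1*, was 0, 1.96 and 2.71 CPM in WT libraries (0, 3 and 10 UMIs) and 8.21, 30.3 and 4.72 in null libraries (6, 23 and 5 UMIs). It had a log2 fold change of 2.74 (edgeR adjusted p = 6.53e-05) without the filter on low counts and of 3.27 (edgeR adjusted p = 0.0392) without E9.5 null D, and over all settings that tested it the adjusted p ranged from 6.53e-05 to 0.141. With the edgeR filter it was not tested in the libraries of E9.5 alone. *Vim* in the Thyroid primordium of E8.5 was 58.0 and 38.3 CPM in WT and 90.8 and 147 in null libraries, and at E9.5 64.3, 64.8 and 64.2 in WT and 72.9 and 100.4 in null libraries.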
